A study of Mus musculus with 20 samples.

Results

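The 1-cell embryo was compared with the stage on either side of it, the oocyte and the 2-cell embryo, to find transcripts whose level was lower or higher at the 1-cell stage than at both. The comparison used 12 of the 20 mouse MOE430A arrays of the series, with 4 arrays each of oocytes, 1-cell embryos and 2-cell embryos, and set the 1-cell arrays against the equal-weight mean of the other two stages. The labels name no allele or agent for any of the 3 groups, and total RNA of all of them went through 2 rounds of in vitro transcription. The labels give no strain, age or hormone treatment, no number of oocytes or embryos per array, no meiotic stage for the oocytes and no primer for the amplification. Nothing in them says that the 4 arrays of a stage came from separate collections, so the p-values cover only the variation among these samples, and that variation may be technical.

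Mouse oocytes stop transcription at the end of growth, and the embryo lives on stored maternal mRNA until its own genome is activated, mainly at the 2-cell stage. In between, stored mRNAs are masked, recruited to ribosomes by elongation of the poly(A) tail, or deadenylated and degraded. Maternal mRNAs that encode meiotic and early embryonic regulators are recruited at maturation, whereas in Xenopus the mRNAs of ribosomal proteins lose their poly(A) tails and leave the ribosomes at that time.

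Levels are probe-set intensities that the authors had scaled to one trimmed mean per array, about 150.1 on each, and differences are given on a log2(intensity + 12.15) scale, which understates the change of weak signals. Arrays of one stage correlated with each other at a median of 0.947 to 0.967 in these 3 stages, and 0 of 190 pairs of arrays held identical values. Oocyte markers were high in oocytes and in 1-cell embryos, whose sums overlapped, so they do not tell these 2 stages apart. The summed intensity of 7 oocyte markers was 28315 to 32482 in oocytes, 24967 to 31006 at the 1-cell stage and 8934 to 11805 at the 2-cell stage. Single markers differed: Zp1, Zp2 and Zp3 had lower means at the 1-cell stage than in oocytes, and Gdf9, Bmp15, Oosp1 and H1f8 higher ones. Of the tested markers of other cells, Odf2 and Ovgp1 stood out from the rest in these 3 stages. Odf2, on the sperm list and also a centrosomal protein, averaged 572, 770.3 and 787 in oocytes, 1-cell and 2-cell embryos, and Ovgp1, an oviduct glycoprotein, 58.5, 74.2 and 495. The next highest stage mean was 196, of Ldhc at the 2-cell stage. Cumulus and granulosa cell markers summed to 453 to 678 in oocytes, 314 to 516 at the 1-cell stage and 398 to 550 at the 2-cell stage, with 7 of 15 tested and 0 of them dips or peaks. Sperm and spermatid markers summed to 820 to 1321, 1153 to 1389 and 1327 to 1520 in the same order, with 10 of 16 tested and 1 dip, Ldhc. Oviduct, blood and leukocyte markers summed to 300.0 to 510.0, 356 to 610 and 659 to 1185, with 9 of 15 tested and 0 dips or peaks. In whole oocytes and embryos, fewer cells of a type and less RNA per cell cannot be told apart.

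Of 17208 probe sets tested, 3522 (20.5%) were lower at the 1-cell stage than the mean of its neighbours and 3310 (19.2%) were higher, in a limma model of all 5 stages with a Benjamini-Hochberg adjusted p under 0.05. A low contrast can arise from one high neighbour, so a dip was defined as a called probe set whose 4 1-cell values all lay below all 8 oocyte and 2-cell values, and a peak as the mirror image. There were 1136 dips (6.6%) and 1428 peaks (8.3%). The dips were deeper than the peaks were high. The step to the nearer neighbour, which is the smaller of its 2 differences, had a median of 1.11 in dips and 0.75 in peaks on the log2 scale. It reached 1, or 2-fold, in 661 dips and 299 peaks, and 2, or 4-fold, in 212 dips and 2 peaks. Both single steps, tested separately, passed the threshold in 1037 dips and 1162 peaks. The called probe set nearest to the threshold among those without overlap was of Slc29a1, with an adjusted p of 0.0488 in limma, and the nearest one left out was of St6galnac6, at 0.05004.

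**Figure D1:**
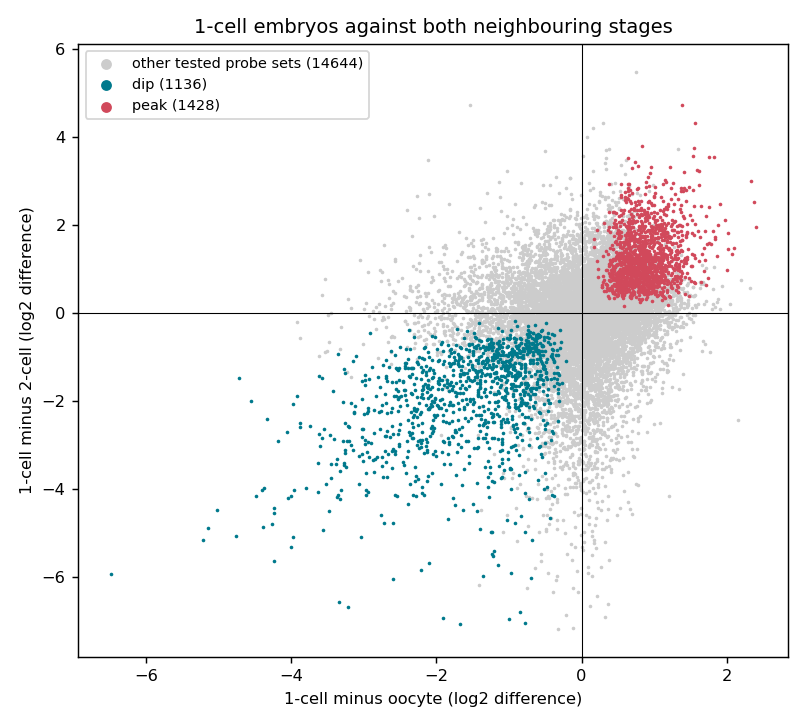
Each point is 1 of 17208 tested probe sets, placed by its log2 difference between 1-cell embryos and oocytes (horizontal) and between 1-cell and 2-cell embryos (vertical). Dips (1136) fill the lower left and reach differences beyond -4 on both axes, and peaks (1428) stay nearer to the origin at the upper right. Both axes use the same 1-cell arrays, so the slope of the cloud is not a result.

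The rise of dips and the fall of peaks from the 1-cell to the 2-cell stage are part of their definitions and not results. The 8-cell and blastocyst levels did not enter the definitions. The median intensity of dip probe sets was 241 in oocytes, 79.5 in 1-cell, 340 in 2-cell and 445 in 8-cell embryos and 429 in blastocysts. The oocyte and 2-cell means lay within 1 log2 unit of each other in 69.2% of dips, which is below the 72.8% of all probe sets tested. After peaks, median levels at the later stages were below the oocyte level. The median intensity of peak probe sets was 281, 523 and 196 in oocytes, 1-cell and 2-cell embryos and then 95.7 in 8-cell embryos and 111 in blastocysts. A probe set was tested if it passed an intensity of 32.9 on at least 4 of 20 arrays, so a transcript that was weak at other stages could enter only through the stage at which it was high.

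The counts of dips and peaks moved with the reference used for scaling. The added hybridization controls, foreign transcripts in the hybridization mix, had a mean log2 intensity of 9.12 ± 0.33 in oocytes, 10.16 ± 0.38 at the 1-cell stage and 9.95 ± 0.37 at the 2-cell stage (SD, n = 4 each). When each array was scaled to these controls instead, the median contrast of all probe sets moved from 0.05 to -0.45, and the share of called probe sets that were higher fell to 7.80% from 48.4%. This scaling moves all probe sets of an array alike and shifted contrasts downward, so it favours dips over peaks by construction, and no scaling that shifts them upward was tried. Dips then numbered 1915, with 1047 of the 1136 among them. Peaks numbered 9, all 9 of them among the 1428. They were Pfn1, Elavl3, Fstl3, Ccnl1, Larp7, Eif2s2, Sh3yl1, Opa3 and a probe set without a single gene symbol, and these names follow from the count. Eif2s2, a subunit of the initiation factor eIF2, has probe sets that go opposite ways: this one and another peaked (1.41 and 1.61), whereas the one that represents the gene dipped (-0.71). Of the 93 list genes that peaked, 25 were still called higher than the oocyte and 2-cell mean under the control scaling, although only Pfn1 remained a peak. Under quantile normalization and under centring on the array median the counts stayed within 1068 to 1102 dips and 1229 to 1548 peaks.

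Among tested members, ribosomal protein mRNAs formed the most complete dip of the 27 gene lists examined. Their list held 82 genes, and only the 45 with a probe set of 1 gene symbol could be tested. Of 45 cytosolic ribosomal protein genes tested, with 1 probe set per gene, 37 dipped (82.2%) and 0 peaked, against 6.62% dips and 8.47% peaks among all 10257 genes, and their median contrast was -2.04 against 0.05 for all genes. Their median log2 level was 9.69 to 10.34 on the 4 oocyte arrays, 7.31 to 8.01 on the 1-cell arrays and 10.18 to 10.73 on the 2-cell arrays, so the 1-cell arrays stood apart from both. At the 8-cell stage it was 12.19 to 12.86, above every earlier array. The count of dips was 36 to 38 under every alternative tried, the control scaling included.

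Rpl41, a small protein of the large subunit, had the largest step. Its intensity was 1838, 873, 1312 and 3762 on the oocyte arrays, 15.6, 68.0, 113 and 199 on the 1-cell arrays and 1991, 1747, 3002 and 3273 on the 2-cell arrays. The highest 1-cell value was thus below the lowest of either neighbour by several fold, although the oocyte and 1-cell arrays each spread widely. Its contrast was -4.53 ± 0.38 (SE; adjusted p = 1.94e-10 in limma), and all 4 of its tested probe sets were called lower while 2 of the 4 met the dip rule.

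Rps20, of the small subunit, gave a tighter dip. It read 1352, 1877, 1708 and 2368 in oocytes, 70.8, 104, 122 and 100.1 at the 1-cell stage and 1848, 2000.3, 2531 and 1812 at the 2-cell stage. The oocyte and 2-cell arrays overlapped with each other and lay far above the 1-cell arrays, with a contrast of -4.13 ± 0.17 (adjusted p = 1.71e-16 in limma). Of the 3 probe sets of Rps20, 2 dipped and the other was not called lower. Rpl7, of the large subunit, read 902 to 1350 in oocytes, 48.9 to 101 at the 1-cell stage and 1334 to 1972 at the 2-cell stage, and 3 of its 3 probe sets dipped. Rps19, which is needed for maturation of 18S ribosomal RNA, read 133 to 245, 2.8 to 19.5 and 269 to 539. Rpsa, a small-subunit protein also known as the laminin receptor precursor, read 816 to 1211, 72.3 to 100.3 and 942 to 1685. In none of these genes did the 1-cell values overlap with another stage, and the contrasts were -3.85 for Rpl7, -3.78 for Rps19 and -3.37 for Rpsa.

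The 8 ribosomal protein genes that did not dip were mostly weaker ones or ones with a different course. Rps25 (-2.46), Rpl14 (-0.71) and Rps27 (-0.57) were called lower but overlapped with oocytes or 2-cell embryos. Rps6 (-0.48, adjusted p = 0.0933 in limma), Rpl12 (-0.26), Fau (-0.26) and Rps27l (0.13) did not pass the test. Rpl37 was the exception in direction, with mean intensities of 710 in oocytes, 769 at the 1-cell stage and 224 at the 2-cell stage and a contrast of 0.92 ± 0.20 (adjusted p = 0.000393 in limma).

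Signal from 18S ribosomal RNA itself moved the opposite way on the same arrays. The middle one of 3 control probe sets for 18S rRNA read 196 ± 57.6 in oocytes, 12665 ± 1877 at the 1-cell stage and 639 ± 116 at the 2-cell stage (SD, n = 4 each). The 1-cell arrays ranged from 11007 to 15355 and the next highest stage, the 8-cell stage, reached 1128. The ratio of 3′ to 5′ signal differed less: for actin it was 4.74 ± 0.36, 4.24 ± 1.20 and 4.63 ± 0.62 in the 3 stages, and for Gapdh 4.70 ± 1.26, 4.76 ± 1.08 and 5.43 ± 0.60. What part the 18S signal or the control intensities have in the dips and peaks was not tested.

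**Figure D2:**
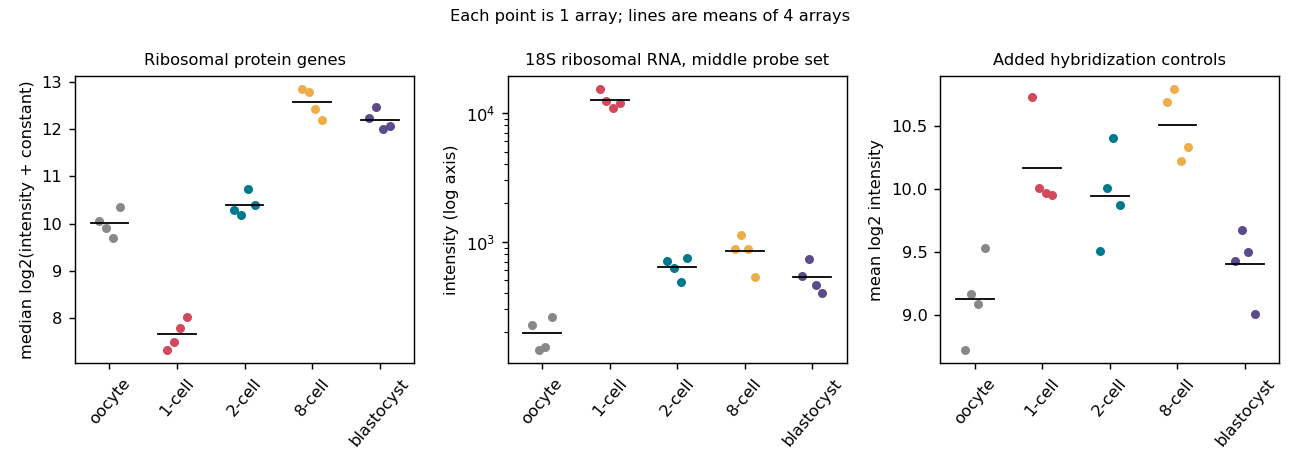
Left, median log2(intensity + 12.15) of the 45 tested ribosomal protein genes on each array; middle, intensity of the middle 18S rRNA probe set (log axis); right, mean log2 intensity of the added hybridization controls. Points are single arrays and lines are means of 4 arrays. The 1-cell arrays are lowest on the left (7.31 to 8.01) and highest in the middle (11007 to 15355), while on the right they overlap with the 2-cell and 8-cell arrays.

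The translation machinery around the ribosome also dipped in part. Of 40 translation factors tested, 13 dipped (32.5%) and 4 peaked (10%), with a median contrast of -0.64. All genes tested held 6.62% dips and 8.47% peaks, so the share of peaks was near that of all genes. Eif3c, a core subunit of the initiation factor eIF3, read 980, 605, 677 and 1001 in oocytes, 20.8, 19, 122 and 187 at the 1-cell stage and 1100, 1605, 2090 and 1922 at the 2-cell stage. Its 1-cell arrays formed a lower and a higher pair, all below the other stages, and its contrast was -3.99 ± 0.33 (adjusted p = 1.10e-10 in limma). Other eIF3 subunits, Eif3f (-2.76), Eif3m (-2.32), Eif3h (-2.16), Eif3l (-1.88) and Eif3b (-1.22), dipped too, as did Eef2 (-1.44), the translocase of elongation, and Etf1 (-2.07), the release factor that reads stop codons. The peaks were Eef2k (1.28), the kinase that inhibits Eef2, Eif3e (1.00), Eif4a1 (0.96), the cap-complex helicase, and Eif5 (0.68). Probe sets of Eif3e went opposite ways: besides the one that represents the gene, another peaked (0.90) and another dipped (-1.74). Eif4a1 was higher on all 3 of its probe sets, at 628 to 1050.1 in oocytes, 1713 to 1880.1 at the 1-cell stage and 887 to 1212 at the 2-cell stage. Under the control scaling 15 of the 40 dipped and 0 peaked, and Eif4a1 lost its call.

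Ribosome biogenesis genes, which act in the nucleolus, dipped in 21 of 59 cases (35.6%) and peaked in 2 (3.39%), with a median contrast of -0.91. The shares among all genes tested were 6.62% dips and 8.47% peaks. At the 2-cell stage the biogenesis genes stood above the oocyte, with a median difference of 0.57 on the log2 scale. Nhp2, a protein of H/ACA snoRNPs and telomerase, read 562 to 643 in oocytes, 70.8 to 143 at the 1-cell stage and 1518 to 2480.1 at the 2-cell stage, with a contrast of -3.35 ± 0.17. RNA polymerase I subunits Polr1e (-2.52), Polr1a (-2.40) and Polr1d (-1.37) dipped, and so did Fbl (-1.43), the box C/D methyltransferase fibrillarin. The 2 peaks, Utp20 (0.70) and Brix1 (0.49), were small, and neither was called higher under the control scaling, where 37 of the 59 dipped.

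Outside the ribosome, Bola2 and Mdh2 were among the 8 largest dips. Bola2, a partner of glutaredoxin in iron-sulfur metabolism, read 179, 240.1, 221 and 318 in oocytes, 3.5, 2.6, 2.9 and 3.9 at the 1-cell stage and 400, 510, 941 and 687 at the 2-cell stage. Its 1-cell signal was near 0 on each array, the contrast was -4.67 ± 0.18 (adjusted p = 4.66e-17 in limma), and 4 of 5 probe sets dipped. Mdh2, the mitochondrial malate dehydrogenase of the citric acid cycle, read 1065, 1031, 1201 and 1359, then 49.9, 60, 69.4 and 124, then 1143, 1269, 1488 and 1362. Oocyte and 2-cell levels of Mdh2 overlapped, and its contrast was -3.89 ± 0.18 with both probe sets dipping.

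**Figure D3:**
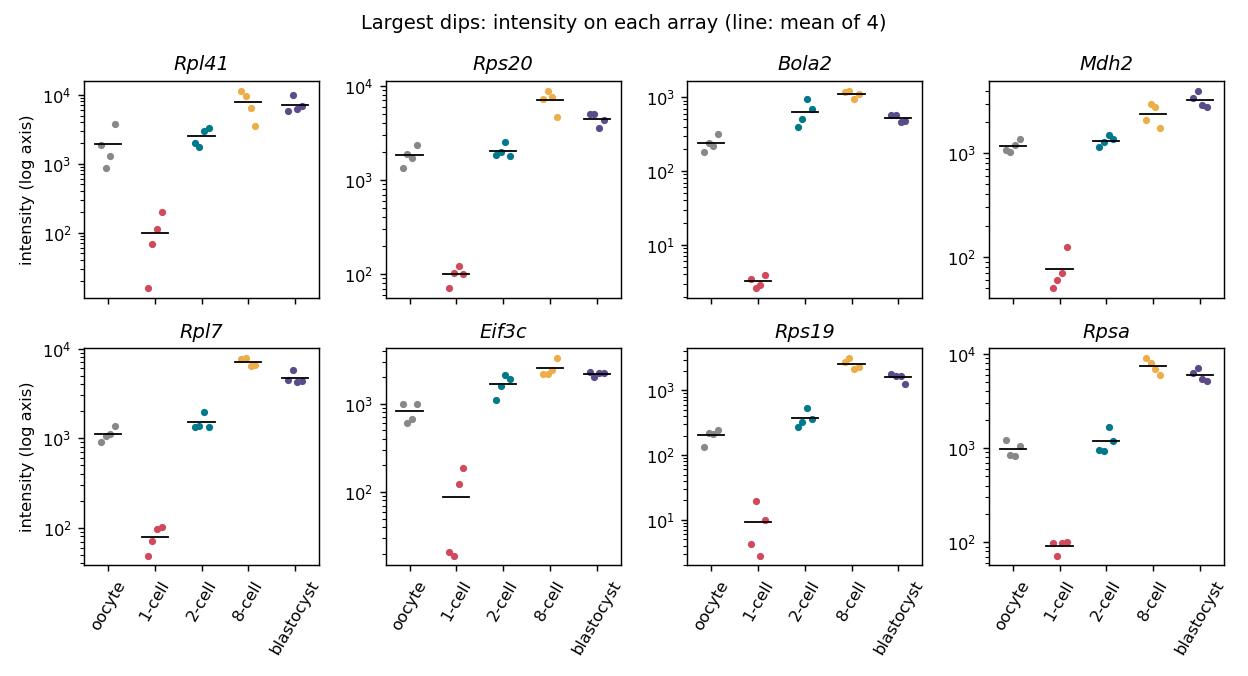
Intensity (log axis) of the 8 genes with the largest dips on each of the 20 arrays, by stage; points are arrays and lines are means of 4. In each panel the 4 1-cell points lie below every other point, as for Rps20, whose 1-cell arrays read 70.8 to 122 against 1352 to 2368 in oocytes and 1812 to 2531 at the 2-cell stage.

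Several of these genes share a promoter feature that the choice of members did not use. RefSeq promoters (GRCm38.p6, 250 bases before to 50 bases after the start of the gene) were matched for 548 of the 679 dip genes, 735 of the 869 peak genes and 8278 of the 10257 genes tested, and 10 motifs were searched. Looked for on both strands were CCGGAAG for the ETS family, TCTCGCG for a palindromic element, AAGATGG for YY1, GCATGCG for NRF1, CACGTG for the E-box, CCAAT for NF-Y, GGGCGG for the SP and KLF family and ACTACAA for the element of ZFP143. The TATAAA box and a pyrimidine start were looked for on the gene's strand alone. The sequence CCGGAAG, the core bound by ETS-family factors such as GABPA, was present in 31.6% of dip promoters (173 of 548), 18.1% of peak promoters (133 of 735) and 16.8% of those of all genes tested, and in 9.12% of all 27025 RefSeq promoters of this length. Ribosomal protein genes held it in 20 of 40 promoters, and without them the share among dip genes was 30.4% (157 of 516). TCTCGCG, which read on both strands makes up a palindromic element of housekeeping promoters, was present in 52 dip promoters (9.49%), 49 peak promoters (6.67%), 5.24% of all tested and 2.72% of all RefSeq promoters, and in 9 of 40 ribosomal protein promoters. A pyrimidine start, a C at the gene start followed by 4 pyrimidines as in the 5′ terminal oligopyrimidine tract of ribosomal protein genes, was found in 22.5% of ribosomal protein promoters, 4.01% of dip promoters, 2.31% of peak promoters, 2.48% of those tested and 2.49% of all. A TATAAA box 45 to 11 bases upstream was rare in dips (3 of 548, 0.547%) beside 1.22% in peaks, 2.37% of those tested and 2.45% of all. AAGATGG was held by 10.2% of dip, 6.12% of peak and 7.15% of tested promoters (6.48% of all), CACGTG by 13.3%, 9.80% and 9.75% (7.24%), ACTACAA by 7.12%, 4.22% and 4.30% (3.45%), GCATGCG by 7.66%, 8.03% and 6.21% (3.64%), CCAAT by 38.1%, 39.6% and 37.8% (37.9%), and GGGCGG by 61.9%, 70.3% and 61.3% (35.9%). These are matches of letters in a window and not sites shown to be bound.

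The promoters of 6 dip genes that hold one of the 2 motifs, and of 2 of the largest peaks that hold neither here, show the layout. They were chosen for their motifs. Of the 22 named dip genes with a promoter entry, 9 hold a match to either motif in this window, and of the 24 named peak genes 2 do, Mrpl3 and Taf13. Windows of the large dips Bola2, Rpsa and Tomm20 hold none. Each run covers the 120 bases before the RefSeq start and the first 20 bases from it in GRCm38.p6, written 5′ to 3′ on the gene's strand, with matches to CCGGAAG or TCTCGCG on either strand in capitals. They are Rpl41 at chr10:128549149-128549288 (minus strand), Nhp2 at chr11:51619653-51619792 (plus strand), Mrpl22 at chr11:58171544-58171683 (plus strand), Eif3c at chr7:126566347-126566486 (minus strand), Rps19 at chr7:24884472-24884611 (plus strand), Mdh2 at chr5:135778529-135778668 (plus strand), Pfn1 at chr11:70654631-70654770 (minus strand) and Ccnl1 at chr3:65958230-65958369 (minus strand).
Rpl41: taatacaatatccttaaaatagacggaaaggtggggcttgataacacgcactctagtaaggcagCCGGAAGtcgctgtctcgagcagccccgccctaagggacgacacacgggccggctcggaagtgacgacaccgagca
Nhp2: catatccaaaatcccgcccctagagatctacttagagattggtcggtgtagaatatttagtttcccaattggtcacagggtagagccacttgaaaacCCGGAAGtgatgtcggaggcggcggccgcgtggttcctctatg
Mrpl22: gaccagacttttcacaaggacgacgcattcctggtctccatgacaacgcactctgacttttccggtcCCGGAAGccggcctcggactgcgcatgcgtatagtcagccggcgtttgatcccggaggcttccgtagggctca
Eif3c: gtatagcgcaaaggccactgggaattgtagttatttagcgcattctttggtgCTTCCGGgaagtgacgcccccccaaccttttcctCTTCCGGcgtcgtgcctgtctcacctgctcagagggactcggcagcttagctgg
Rps19: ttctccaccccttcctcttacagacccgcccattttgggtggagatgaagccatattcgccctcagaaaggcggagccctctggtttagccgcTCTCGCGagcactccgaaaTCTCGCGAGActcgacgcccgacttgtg
Mdh2: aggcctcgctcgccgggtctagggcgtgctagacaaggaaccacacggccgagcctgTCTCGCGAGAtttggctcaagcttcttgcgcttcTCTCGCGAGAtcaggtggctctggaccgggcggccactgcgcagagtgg
Pfn1: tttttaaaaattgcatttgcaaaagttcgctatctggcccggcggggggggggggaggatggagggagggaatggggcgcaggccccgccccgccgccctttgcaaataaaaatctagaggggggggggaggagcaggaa
Ccnl1: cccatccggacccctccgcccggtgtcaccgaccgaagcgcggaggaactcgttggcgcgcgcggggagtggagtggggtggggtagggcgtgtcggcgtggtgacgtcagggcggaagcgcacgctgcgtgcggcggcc

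Rpl41, Nhp2 and Mrpl22 hold 1 copy of CCGGAAG each, Eif3c holds it at 2 places in the reverse orientation, and in Mdh2 and Rps19 overlapping matches to TCTCGCG on both strands join into longer runs of capitals. The Pfn1 and Ccnl1 windows show no capitals.

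Mitochondrial lists held larger shares of dips than all genes tested (6.62% dips and 8.47% peaks) and smaller ones than the cytosolic ribosome. Complex I, the NADH dehydrogenase, had 10 dips (29.4%) and 1 peak among 34 subunits and assembly factors, a median contrast of -1.03, and a median 2-cell level that was 1.57 log2 units below the oocyte level. Complexes II and III had 5 dips and 1 peak among 14, cytochrome c oxidase and its assembly factors 5 and 0 among 15, ATP synthase 6 and 0 among 15, mitochondrial ribosomal proteins 19 and 3 among 74, and mitochondrial import 8 and 0 among 24. Their median contrasts were -0.80, -0.43, -0.90, -0.72 and -0.97. The median 1-cell minus oocyte difference was -2.01 in complex I, -1.42 in complexes II and III and -1.01 in mitochondrial ribosomal proteins. The median 1-cell minus 2-cell difference was -0.27, -0.43 and -0.09 in the same order, so these contrasts rested mostly on the oocyte arrays. For ATP synthase the 2 medians were -1.18 and -0.38, for cytochrome c oxidase -0.91 and -0.68, and for mitochondrial import -0.74 and -0.72.

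Tomm20, the receptor of the outer-membrane import pore, had the steepest recovery of the named genes. It read 555, 453, 463 and 470 in oocytes, 32.1, 55.6, 33.9 and 47.4 at the 1-cell stage and 4966, 5458, 6935 and 4883 at the 2-cell stage. Its 2-cell level was thus far above the oocyte level, and 5 of its 5 probe sets dipped, with a contrast of -4.95 ± 0.15 (adjusted p = 3.21e-19 in limma). Cox17, the copper chaperone of cytochrome c oxidase, did the reverse. It read 1389, 1384, 1318 and 2064 in oocytes, 41.4, 55.3, 41.1 and 79.9 at the 1-cell stage and 177, 208, 437 and 234 at the 2-cell stage, so that the 2-cell arrays lay above the 1-cell arrays but below every oocyte array. The pore subunit Tomm22 (-3.24) and the inner-membrane translocase subunits Timm17b (-2.85) and Timm17a (-2.23) also dipped.

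Within the respiratory chain and the mitochondrial ribosome the same spread of courses was seen. Ndufc1 of complex I averaged 402 in oocytes, 40.02 at the 1-cell stage and 245 at the 2-cell stage, Uqcrfs1, the Rieske protein of complex III, 315, 45.2 and 489, Atp5j of ATP synthase 596, 46.0 and 407, and Mrpl22, a large-subunit protein of the mitochondrial ribosome, 1439, 92.5 and 562. The contrasts of these 4 genes lay between -3.32 and -2.64. Members of the same complexes went the other way. Ndufa10 of complex I read 352 to 447 in oocytes, 878 to 1369 at the 1-cell stage and 254 to 432 at the 2-cell stage (contrast 1.64 ± 0.16), and Sdha, the flavoprotein of complex II, 555 to 754, 1296 to 1635 and 248 to 539 (1.54 ± 0.18, 1 of 2 probe sets a peak). Mrpl3 (0.80), Mrpl44 (0.82) and Mrps23 (0.64) peaked in the mitochondrial ribosome. Under the control scaling 0 members of these lists peaked, and Mrpl3 was no longer called.

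The proteasome, which degrades ubiquitinated proteins, had 5 dips (25%) and 0 peaks among 20 core subunits. Of these 20, 11 were called lower and 5 higher. The median 1-cell minus oocyte difference of the core list was -0.80 and that of 1-cell minus 2-cell 0.10, so the list did not dip as a whole. The 24 cap and activator genes of the proteasome had 4 dips (16.7%) and 1 peak (4.17%), against 6.62% dips and 8.47% peaks among all genes tested. The core subunit Psmb1 averaged 775 in oocytes, 33.3 at the 1-cell stage and 310 at the 2-cell stage, but only 1 of its 3 probe sets dipped. Psmd14, the deubiquitinase of the cap, read 837 to 1136, 99.5 to 197 and 846 to 1356 (contrast -2.74 ± 0.16). Psmd1, the largest cap subunit, peaked at 697 to 799, 1612 to 1966 and 389 to 554 (1.58 ± 0.13), and was not a peak under the control scaling.

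Lists of RNA polymerase II and splicing genes held dips and peaks side by side, where all genes tested held 6.62% dips and 8.47% peaks. Among 53 RNA polymerase II subunits and general transcription factors, 14 dipped (26.4%) and 10 peaked (18.9%), with a median contrast of -0.08. Polr2b, the second-largest polymerase subunit, read 1082 to 1812 in oocytes, 255 to 464 at the 1-cell stage and 1279 to 1360.0 at the 2-cell stage, whereas Taf13, a subunit of TFIID, read 852 to 1528, 1995 to 2822 and 964 to 1135. The Mediator subunits split the same way, with Med7 (-2.24) and Med8 (-1.89) among the dips and Med22 (1.62) and Med30 (1.55) among the peaks. Splicing factors had 6 dips and 6 peaks among 45, and Sm and LSm proteins 3 and 3 among 21. Srsf1, an SR protein, averaged 831, 173 and 2833, and Prpf6, a tri-snRNP protein, 809, 1427 and 245. Srsf1 dipped on 3 of 6 probe sets and Prpf6 peaked on 2 of 3. Snrnp25 of the minor spliceosome (-2.93) and Snrpc of U1 (-3.06) dipped, while Snrpd3 of the Sm ring (1.91) peaked, on 1 of 3 probe sets. The signal recognition particle and endoplasmic reticulum translocon had 2 dips, Srpr (-1.41) and Ssr4 (-1.40, on 1 of 3 probe sets), and 4 peaks among 20. Each of these lists had 0 peaks under the control scaling, and 2 medians changed sign, from 0.31 to -0.28 for Sm and LSm proteins and from 0.05 to -0.56 for splicing factors.

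Peaks were led by Pfn1, profilin, which binds actin monomers. It read 19.5, 22.0, 37.4 and 57.1 in oocytes, 144, 164, 300 and 269 at the 1-cell stage and 15.8, 6.4, 40.3 and 9.5 at the 2-cell stage. The lowest 1-cell value exceeded the highest of either neighbour, with a contrast of 2.67 ± 0.29 (adjusted p = 1.73e-08 in limma), and Pfn1 remained a peak under the control scaling with a contrast of 2.14. Ccnl1, cyclin L1, which associates with splicing-related kinases, was the other one of the 8 largest peaks to do so.

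Ccnl1 read 322, 310, 276 and 339 in oocytes, 1399, 1482, 1516 and 810 at the 1-cell stage and 263, 353, 267 and 251 at the 2-cell stage. One 1-cell array was lower than the other 3, yet above every oocyte and 2-cell array, and the contrast was 2.05 ± 0.17 (1.44 under the control scaling). Smn1, which assembles Sm proteins on spliceosomal RNAs, read 14.3, 12.3, 33.0 and 72.7, then 105, 118, 179 and 147, then 29.7, 18.9, 38.3 and 14.3. Its oocyte arrays spread widely, but none reached a 1-cell value.

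Each of the 8 largest peaks had a lower mean at the 2-cell stage than in oocytes. Ptpn21, a FERM-domain tyrosine phosphatase, read 442 to 689 in oocytes, 1625 to 2128 at the 1-cell stage and 272 to 373 at the 2-cell stage. Csad, which makes the precursor of taurine from cysteine sulfinate, read 206 to 274, 658 to 839 and 42.6 to 84.2. Psen2, a catalytic subunit of gamma-secretase, read 258 to 326, 773 to 1065 and 58.1 to 106 and peaked on 1 of 2 probe sets. These 3 had contrasts of 2.04 ± 0.14, 2.43 ± 0.18 and 2.42 ± 0.17, with 0.05 as the median of all genes. Satb1, a homeodomain protein that organizes chromatin, read 383 to 442, 1185 to 1355 and 240 to 448 and peaked on 1 of 3 probe sets (1.73 ± 0.15). The zinc-finger gene Zfp235 read 10.8 to 69.1, 92.9 to 194 and 4.9 to 8.0 (2.26 ± 0.30).

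**Figure D4:**
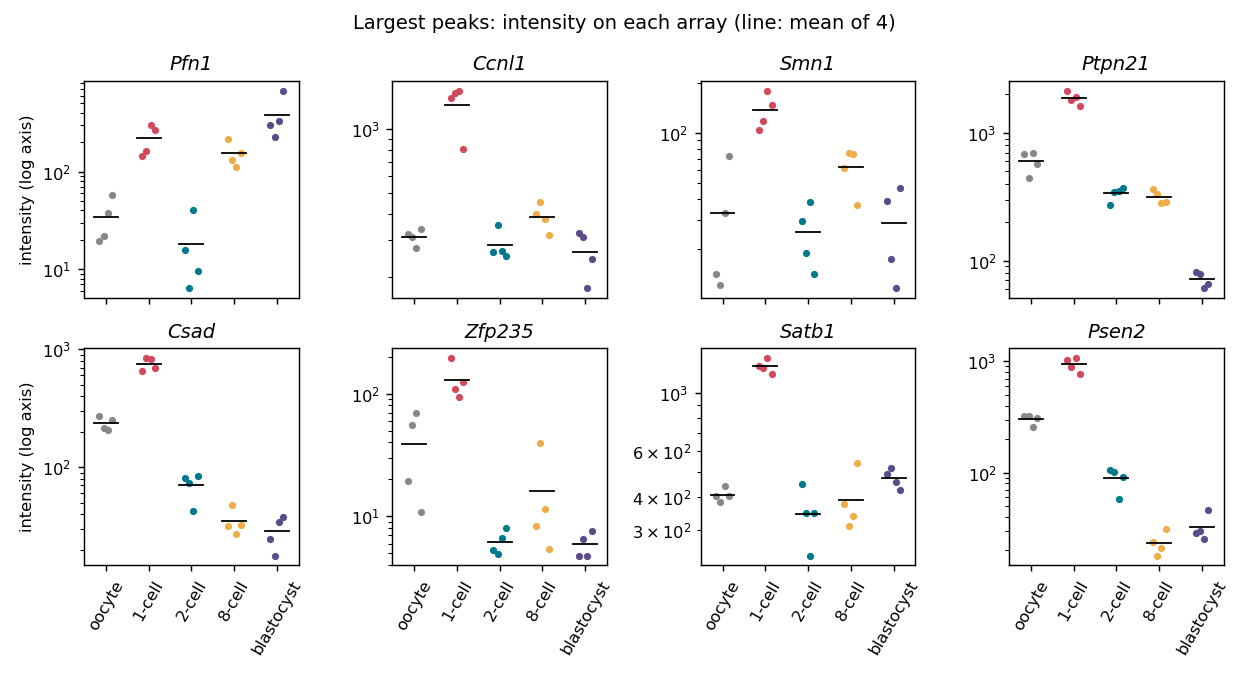
Intensity (log axis) of the 8 genes with the largest peaks on each of the 20 arrays, by stage; points are arrays and lines are means of 4. The 4 1-cell points lie above all oocyte and 2-cell points in each panel; in Pfn1 the blastocyst mean of 380.1 is higher still.

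With the deposited scaling, maternal transcripts had the largest shares of peaks among the 27 lists. All genes tested held 8.47% peaks and 6.62% dips. Of 35 oocyte-specific and maternal-effect genes, 11 peaked (31.4%) and 0 dipped, with a median contrast of 0.65. Of 31 mRNAs known to be dormant in the oocyte and recruited at maturation, 10 peaked (32.3%) and 2 dipped, with a median contrast of 0.78. Both lists hold some of the same genes, such as Spin1, so their shares are not independent. Under quantile normalization 4 of the 35 and 8 of the 31 peaked, with medians of 0.47 and 0.40, where 8.93% of all genes peaked. The oocyte-specific list no longer ranked near the top there: 11 of 53 RNA polymerase II and general transcription factor genes peaked. Under the control scaling the medians of the oocyte-specific and dormant lists were 0.03 and 0.16, and 0 members of either list peaked. Of the peaks, Ewsr1 (1.47), Dazl (0.93), Cnot6l (0.75) and Slbp (0.72) of the dormant list and Obox2 (1.16), Dnmt3a (0.80) and Bcl2l10 (0.78) of the oocyte list were still called higher than the mean of both neighbours there.

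Spin1, a histone-methylation reader that is abundant in oocytes, read 5997, 5480, 5462 and 6022 in oocytes, 14720, 11746, 10216 and 9243 at the 1-cell stage and 4742, 5503, 5695 and 4049 at the 2-cell stage. The 1-cell arrays lay above all others, while oocyte and 2-cell arrays overlapped, and the contrast was 1.08 ± 0.20 (adjusted p = 6.24e-05 in limma). However, Spin1 peaked on 2 of 4 probe sets, and the call was lost under quantile normalization and under the control scaling. Btg4, the adaptor that brings the CCR4-NOT deadenylase to maternal mRNAs, read 6739 to 8202, 9899 to 12384 and 3468 to 7152 (0.85 ± 0.20) and lost its call under the same 2 settings. Cnot6l, a deadenylase of that complex, read 1883, 1513, 1783 and 1604 in oocytes, 6385, 4515, 3883 and 3075 at the 1-cell stage and 2107, 1709, 1204 and 1631 at the 2-cell stage. Oocyte and 2-cell levels of Cnot6l overlapped, its contrast was 1.37 ± 0.17, and 2 of its 4 probe sets peaked. Dazl (1.55), an RNA-binding translational activator of oocytes, Slbp (1.34), which binds histone mRNA, and Ewsr1 (2.10) peaked in the dormant list, and Obox2 (1.79), Dnmt3a (1.42), Bcl2l10 (1.41), Bmp15 (1.12) and Oosp1 (0.78) in the oocyte list.

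The 2 dormant mRNAs that dipped are cell-cycle regulators. Cdk1, the mitotic kinase, averaged 1391 in oocytes, 413 at the 1-cell stage and 2683 at the 2-cell stage (-2.22 ± 0.16), and Cdc6, the origin-licensing factor, 512, 90.8 and 355 (-2.09 ± 0.17). Oocyte genes were not uniform. The zona pellucida gene Zp3 fell at each stage, with 4962 to 5830 in oocytes, 896 to 1339 at the 1-cell stage and 382 to 579 at the 2-cell stage, and was neither dip nor peak. The secreted factor Gdf9 read 7027 to 8566, 7835 to 10273 and 1242 to 1685, the oocyte linker histone H1f8 1843 to 2345, 2175 to 4700 and 50.4 to 87.1, and the meiotic kinase Mos 2588 to 3099, 470 to 1340 and 4.1 to 129. Gdf9, H1f8 and Mos were called higher through their low 2-cell level, and each overlapped with or lay below the oocyte arrays.

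Genes for mRNA decay, storage and translational control had 7 peaks (12.7%) and 4 dips (7.27%) among 55. All genes tested held 8.47% peaks and 6.62% dips, so the share of dips was near that of all genes. Besides Cnot6l and Btg4, the peaks held Pan2 (1.09), a poly(A) nuclease, Lsm14b (1.41), a storage-granule protein of oocytes, and Igf2bp3 (1.05), an mRNA-stabilizing protein. The dips were Dis3, the catalytic RNase of the exosome, at 160 in oocytes, 26.1 at the 1-cell stage and 631 at the 2-cell stage (-3.23 ± 0.20), the exosome subunit Exosc5 (-2.02), Tob1 (-2.997), a recruiter of deadenylase, and the m6A reader Ythdf1 (-1.20). The median of the list was 0.24 and changed sign to -0.35 under the control scaling.

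M phase genes had 13 peaks (21.0%) and 6 dips (9.68%) among 62, against 8.47% peaks and 6.62% dips among all genes tested. Kif23, the kinesin of the midzone in cytokinesis, read 1545 to 1749 in oocytes, 2848 to 3908 at the 1-cell stage and 847 to 982 at the 2-cell stage (1.48 ± 0.14). The condensin subunit Ncapg (1.74), the phosphatase Cdc25a (1.62), the meiotic kinase Aurkc (1.15) and the checkpoint protein Mad2l1 (0.97) also peaked. The related phosphatase Cdc25c went the other way, at 42.2 to 54.2, 2.3 to 8.1 and 256 to 431 (-3.05 ± 0.19), beside Cdk1, the kinase that both phosphatases activate. The median of 0.32 for this list became -0.30 under the control scaling, where 11 members dipped and 0 peaked.

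DNA methylation and chromatin modifiers had 11 peaks (18.97%) and 3 dips (5.17%) among 58, against 8.47% peaks and 6.62% dips among all genes tested. Kdm6a, a demethylase of the Polycomb histone mark, read 551 to 887 in oocytes, 1631 to 1999 at the 1-cell stage and 608 to 876 at the 2-cell stage (1.31 ± 0.15). The Polycomb proteins Ezh2 (1.05) and Eed (1.14), which place this mark, the maintenance methylation factor Uhrf1 (1.04) and the demethylase Kdm1a (1.16) peaked as well. Hdac1, a histone deacetylase, dipped at 101 to 153, 31.0 to 60.5 and 698 to 979 (-2.52 ± 0.15), as did Chaf1b (-0.82) and Kat2a (-0.78). The median contrast of the list was 0.08, and -0.39 under the control scaling with 0 peaks.

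Among 49 actin cytoskeleton genes 8 peaked (16.3%) and 2 dipped (4.08%), against 8.47% peaks and 6.62% dips among all genes tested. Pfn1 alone stayed a peak under the control scaling, where the median moved to -0.52. Fmn2 (1.13), the formin of spindle positioning in oocytes, Diaph1 (0.94), Rac1 (0.76) and Actb (0.72) peaked, while Arpc1a of the Arp2/3 complex (-2.16) and Dstn (-1.20) dipped. Homeobox genes had 5 peaks (13.5%) and 0 dips among 37 tested of 55 on the array. The peaks were Hoxa7 (1.79), Meis2 (1.79), Obox2, Satb1 and Hoxd9 (1.45). Under the control scaling this list had 0 peaks, and its median changed sign from 0.18 to -0.26. Glycolysis genes had 1 dip (4.17%), the lactate transporter Slc16a1 (-2.28), and 0 peaks among 24. Slc16a1 averaged 18.55 in oocytes and 4.4 at the 1-cell stage, both below the filter intensity of 32.9, and 202 at the 2-cell stage. Its contrast rested mostly on the 2-cell arrays, with a 1-cell minus oocyte difference of -0.86 and a 1-cell minus 2-cell difference of -3.69.

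The 2-cell activation genes show why the mean contrast was not used alone. They had a median contrast of -1.42 and 16 of 22 were called lower, whereas 4 met the dip rule (18.2%) and 1 peaked (4.55%). Among all genes tested 20.6% were called lower, 6.62% dipped and 8.47% peaked, so the share of dips was still above that of all genes. Zfp352, which encodes a zinc-finger protein of the activation burst, read 7.1 to 29.6 in oocytes, 11.7 to 26.4 at the 1-cell stage and 1530 to 2417 at the 2-cell stage, so that its contrast of -2.92 rested on the 2-cell arrays, with a 1-cell minus oocyte difference of 0.14. The dips were Dppa4 and Dppa2, DNA-binding proteins of pluripotent cells, the chaperone Hspa8 and the splicing factor U2af1. Dppa4 read 194, 261, 190.1 and 186 in oocytes, 53.5, 71.1, 94.3 and 99.0 at the 1-cell stage and 1560, 1663, 1725 and 1525 at the 2-cell stage (-2.73 ± 0.15). The peak was Klf17, a Krüppel-like factor, at 1337 to 1397, 3676 to 4154 and 2583 to 3279 (0.93 ± 0.12), which was not called under the control scaling.

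**Figure D5:**
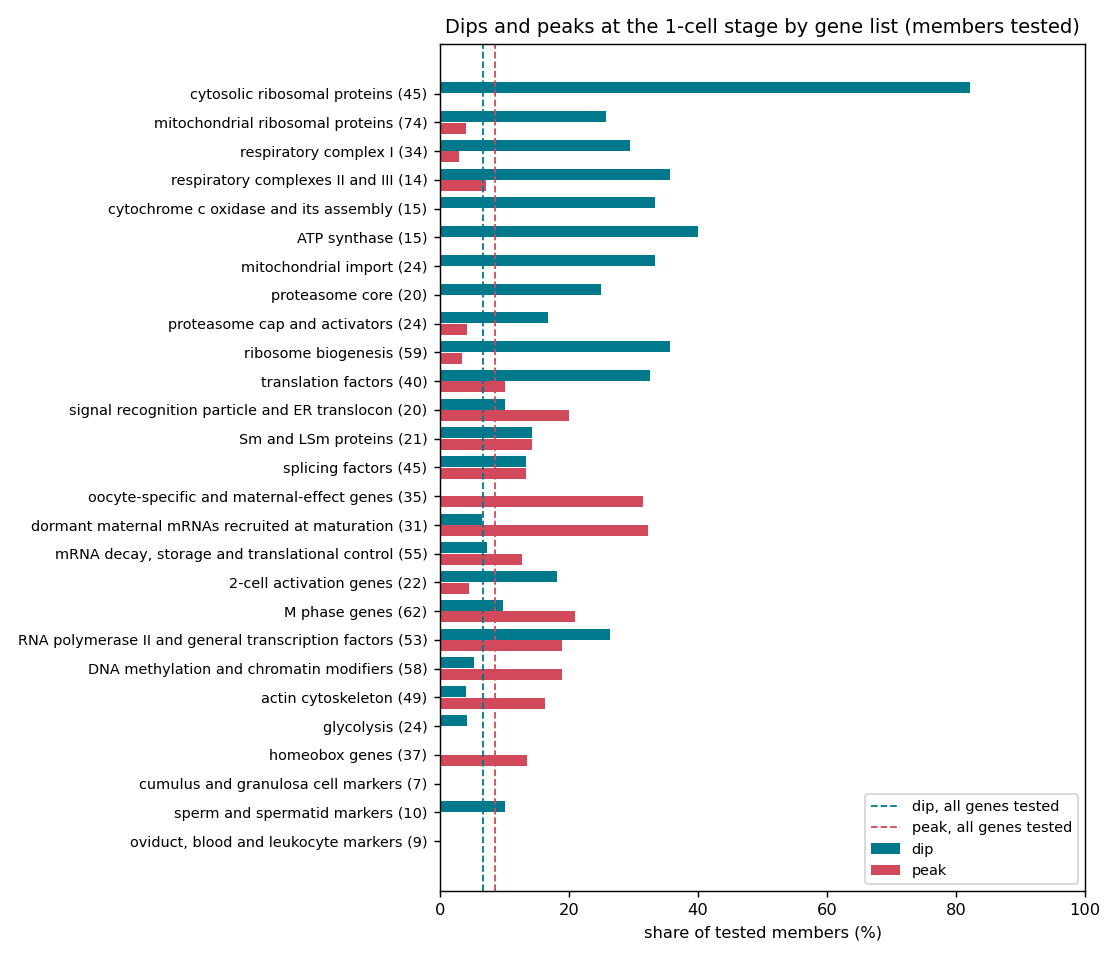
Share of the tested members of each gene list that dipped (blue) or peaked (red) at the 1-cell stage, with 1 probe set per gene; the number tested is in parentheses and the dashed lines give the shares among all 10257 genes (6.62% and 8.47%). Ribosomal proteins reach 82.2% dips, and the oocyte-specific and dormant lists 31.4% and 32.3% peaks.

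Probe sets of one gene did not always move together. Of the 679 dip genes 317 had more than 1 tested probe set, and in 66 of these all were dips. Of the 869 peak genes 435 had more than 1, and in 96 all were peaks. In 29 genes 1 probe set dipped and another one peaked. Because both are read on the same arrays, the gap between their contrasts hardly depends on how an array is scaled, although the class of the peak does: 2 such genes were left under the control scaling, and 21 to 47 under the other alternatives, with the 47 reached without 1-cell replicate 4. The 4 genes with the largest steps on both sides were Dynll2, Camk2g, Srp9 and Fxr1, chosen after their values were seen.

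Dynll2, a dynein light chain, read 1189, 1146, 1310 and 1316 in oocytes, 250, 299, 408 and 484 at the 1-cell stage and 1057, 1009, 1098 and 1042 at the 2-cell stage on its dip probe set. On its peak probe set it read 404, 191, 231 and 215, then 671, 607, 597 and 787, then 133, 151, 186 and 234. The 1-cell arrays were thus the lowest by one probe set and the highest by the other, with contrasts of -1.68 ± 0.17 and 1.62 ± 0.19 (adjusted p = 6.04e-09 and 9.93e-08 in limma). Camk2g, a subunit of the calcium-calmodulin kinase that acts in egg activation, read 914 to 1016, 220 to 500.4 and 538 to 1142 on one probe set (-1.50 ± 0.20) and 273 to 323, 856 to 1323 and 253 to 367 on the other (1.79 ± 0.23). Srp9, of the signal recognition particle, read 540 to 748, 173 to 229 and 748 to 1002 (-1.75 ± 0.16) and 528 to 830, 1193 to 1608 and 455 to 644 (1.22 ± 0.16). Fxr1, an RNA-binding protein related to FMRP, had contrasts of -1.09 ± 0.19 and 1.47 ± 0.21. In each of the 4 genes both probe sets kept their direction under every alternative, and all were called except the Srp9 peak probe set under the control scaling. The probe positions within these transcripts were not analysed here.

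Dip and peak genes also differed in the length of the gene in RefSeq. The median span from start to end was 14.1 kb in the 679 dip genes and 33.3 kb in 868 peak genes, beside 21.4 kb in 10245 genes tested. Ribosomal protein genes, at 3.35 kb, were shorter, and without them the dip genes had a median of 15.3 kb. Dip probe sets carried several gene symbols in 10.3% of cases, against 2.24% of peaks and 2.98% of all tested, and 23.5% of them were of the types _x_at or _s_at, whose probes can match further transcripts, against 13.8% of peaks and 14.0% of all. Of the 8 largest dips Rpl41, Rps20, Rpl7 and Eif3c rest on such probe sets, so related transcripts or pseudogenes may share in those values. Rpsa, Tomm20, Mdh2, Bola2 and Rps19 do not.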

How the data were processed

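Expression was measured in 20 samples of mouse oocytes and embryos, 4 per stage at 5 stages, named and numbered in the titles, and the 12 arrays of oocytes, 1-cell and 2-cell embryos entered the contrast. Each deposited value is a linear probe-set intensity, with total RNA amplified by 2 rounds of in vitro transcription per the labels. The authors' software, background step and probe-level summary are not given in the labels or file headers. From the values, the mean intensity after trimming 2% at each end was 150.05 to 150.08 on every array, so the authors scaled them to one trimmed mean. The number of arrays limits the precision.

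Of 22690 probe sets, 64 controls were left out. The platform annotation named 1 gene for 20380 of the rest, several for 691 and none for 1555, with symbols updated through RefSeq (GRCm38.p6). Intensities were transformed as log2(value + 12.15), the pooled median of 48.6 divided by 4. Tests covered probe sets that exceeded 32.9, the 40th percentile of all values, on 4 or more arrays. In limma 3.58.1 (R 4.3.3) a model of 5 stage means was fitted (eBayes with intensity trend, 15 residual degrees of freedom, two-sided, Benjamini-Hochberg over 17208 probe sets), and tested on simulated data with known changes. Errors are moderated standard errors for contrasts and SDs over 4 arrays for intensities. Each gene was represented by its tested probe set of highest mean log2 value. Promoters, gene spans and figures were handled in Python 3.11.15 with pandas 2.3.3 and matplotlib 3.10.9.

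The members and lists were chosen with earlier results of these data known. Promoter motifs were chosen without a prior rule, and 4 of them (the palindromic element and those of YY1, NRF1 and ZFP143) were shortened after longer forms had been searched and their shares seen, which are not given. Genes were named by a rule: among genes with 1 established symbol that dip or peak and whose higher stage mean exceeds the median of tested probe sets, the 8 dips and 8 peaks with the largest step to the nearer neighbour, up to 1 of each per list, and the stage checks Zp3, Gdf9, Mos, H1f8, Btg4, Zfp352, Pfn1, Cox17 and Rps20. Other list members and the genes with opposite probe sets were picked as examples after their values were seen. The alternatives tried were median centring of arrays, quantile normalization, scaling to the hybridization controls, 2 other constants, no filter or one at the 60th percentile, 1 probe set per gene, the 12 arrays alone, a replicate block, no intensity trend and leaving out each array in turn.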

Additional observations from a re-analysis of the deposited data

Results flagged for a closer look

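Of 195 groups of 4 arrays, 65 probe sets at 3 stages, 16 had one array apart from the other 3: its gap to the nearest of them, divided by the range of the group on the log2 scale, exceeded Dixon's critical value for 4 values. Chance marks about 1 in 20 groups.

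In oocytes, the highest array for Cox17 read 2064 against 1318 to 1389 on the others (ratio 0.884). Ssr4 had its highest array at 238 and the others at 172 to 179 (ratio 0.888). For Cdc6 the lowest array read 380.5 against 551 to 561 (ratio 0.953). Dppa4 had its highest array at 261 and the others at 186 to 194 (ratio 0.874). For Klf17 the lowest array read 1337 against 1390.1 to 1397 (ratio 0.884). Camk2g (dip probe set) had its lowest array at 914 and the others at 998 to 1016 (ratio 0.835). For Srp9 (dip probe set) the highest array read 748 against 540.4 to 561 (ratio 0.888).

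In 1-cell embryos, the lowest array for Rpsa read 72.3 against 97.9 to 100.3 on the others (ratio 0.925). Ccnl1 had its lowest array at 809.5 and the others at 1398 to 1516 (ratio 0.871). For Ldhc the highest array read 27.8 against 10.7 to 12.2 (ratio 0.886). Mos had its lowest array at 470.4 and the others at 1155 to 1339.8 (ratio 0.857).

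In 2-cell embryos, the highest array for Rpl7 read 1972 against 1334 to 1351 on the others (ratio 0.967). Mrpl3 had its lowest array at 186 and the others at 196 to 197 (ratio 0.899). For Eif4a1 the highest array read 1212 against 887 to 913 (ratio 0.908). Prpf6 had its highest array at 303 and the others at 223 to 227 (ratio 0.932). For Slc16a1 the lowest array read 162 against 212 to 218 (ratio 0.903).

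Each of these genes but Mos is a dip or a peak. By the definition of these classes the array that stood apart could not overlap with the stages compared, so its position is no further check.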

How the results depend on the processing

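Scaling to the hybridization controls was the one setting that moved the main counts by more than 1.5 times, to 5733 lower, 485 higher, 1915 dips and 9 peaks; the cause was not tested. With 1 probe set per gene the counts were 2110, 2005, 679 and 869, since fewer features were counted. The other settings gave 1068 to 1143 dips and 1229 to 1548 peaks. Leaving out 1 array in turn gave 3198 to 3547 lower, 2830 to 3298 higher, 1154 to 1448 dips and 1433 to 1827 peaks, where a smaller group overlaps less. Under the control scaling the median contrasts of 8 lists changed sign, to -0.28 for Sm and LSm proteins, -0.56 for splicing factors, -0.35 for mRNA decay, -0.30 for M phase genes, -0.39 for DNA methylation and chromatin modifiers, -0.52 for actin cytoskeleton, -0.26 for homeobox genes and -0.20 for sperm markers. That scaling shifts contrasts downward, and none that shifts them upward was tried. Of 179 list genes that dipped all 179 stayed called lower under each of 22 settings. Of 93 that peaked 25 stayed called higher under all settings, and 6 changed sign under the control scaling. Among the named genes Mrpl3, Utp20, Eif4a1, Srp9, Klf17 and Taf13 lost their call there, Spin1 and Btg4 there and under quantile normalization, and Zp3 under median centring and without 1-cell replicate 1. With the replicate block the counts were 3517, 3294, 1133 and 1425, but the numbers do not pair the arrays: same-numbered arrays of different stages correlated at -0.124 to 0.104 in their deviations from the stage mean, over 0.1 in 1 of 12 pairs, and 3 of 12 correlated best with their own number. Fold changes of weak signals, such as the 1-cell values of Bola2 and Rps19, are limited by the background of the array.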
